A study of Mus musculus with 288 samples.

Results

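The Wnt and beta-catenin genes of embryonic stem cells were followed through a release from 2i, in single-cell transcriptomes of 10 genes chosen by name out of the 54232 in the deposited count table. They are Axin2, Nkd1, Notum, Sp5, T, Cdx1, Lef1 and Tcf7, which are known targets of the pathway, and Tcf7l1 and Ctnnb1, which encode a DNA-binding partner and beta-catenin itself. Mouse E14 embryonic stem cells of strain 129/Ola were grown in N2B27 medium with LIF (20 ng/ml), the GSK3 inhibitor CHIR99021 (3 µM) and the MEK inhibitor PD0325901 (1 µM), and were sampled there as D0 (0 h). The D1 (24 h) and D2 (48 h) cells had been moved to DMEM with 15% serum and the same LIF, without either inhibitor. Each label holds 96 wells of 1 plate, and nothing in the labels points to more than 1 culture per time point. The effects of CHIR99021 removal, PD0325901 removal, the change from N2B27 to serum, the culture, the plate and, for D1, the origin of the cells cannot be told apart. Cells of a single culture do not count as replicates, so the labels were compared without a test. Passing cells, with over 200000 reads on genes, over 2000 genes and a mitochondrial share under 0.15, numbered 90 in D0, 50 in D1 and 93 in D2.

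In the absence of a Wnt signal, a destruction complex built on Axin and APC holds beta-catenin, GSK3 phosphorylates it, and the protein is degraded. A Wnt ligand, or an inhibitor of GSK3 such as CHIR99021, lets beta-catenin accumulate and bind TCF/LEF proteins on DNA, where it turns on targets that include feedback inhibitors of the pathway. In embryonic stem cells Tcf7l1 acts mainly as a repressor of naive pluripotency genes, and beta-catenin relieves that repression, which is one reason why the inhibitor is part of 2i.

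Depth and library complexity differed between the labels. The median cell had 1610758.5 reads on genes in D0 (range 255040 to 10073010), 7956161.5 in D1 (202157 to 43336922) and 2162090 in D2 (491549 to 9812323), and after random thinning of all cells to 200000 reads it had 7795, 8036.5 and 3945 detected genes. Shares of cells below are at this equal depth, with exact Clopper-Pearson 95% intervals that cover counting error only. Levels are means over cells of read counts scaled to a total of 1000000 per cell (CPM), with the SD between cells. At equal depth 8 of 90 D0 cells, 48 of 50 D1 cells and 5 of 93 D2 cells carried an Hprt read. Reads of any of the Y-linked genes Uty, Kdm5d, Ddx3y and Eif2s3y were present in 3, 48 and 3 cells. The D1 cells thus stand apart from the other plates although all carry the E14 label. The source that the study cites for E14 concerns HPRT-deficient embryos, and E14 is a male line. Hprt reads in D1 differ from that source, and the scarce Y-linked reads in D0 and D2 differ from a male line. Whether the E14 cells used here lacked Hprt is not stated. Which plates hold another line was not settled, and every comparison with D1 is also one between cells that differ in these reads. Values were also computed without the 10 D0 and 7 D2 cells that had such reads and the 1 D1 cell that lacked them. All 8 pluripotency markers examined, such as Pou5f1 and Sox2, were read in each label. Markers of primitive endoderm were near 0, with means of their 6 summed genes from 1.18 to 3.22 CPM, and 4 marker genes of 2-cell-like cells had no read. Trophectoderm markers were read in each label, with 3, 4 and 3 of 6 genes over 10% of cells in D0, D1 and D2, summed means of 109, 59.5 and 128 CPM and 1 D2 cell at 9105 CPM. Those of ectoderm (4 genes) averaged 10.1, 19.5 and 1.39 CPM and those of fibroblasts (5 genes) 0.406, 5.81 and 1.32 CPM. The part of other cell types in the values below was not tested.

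The 10 genes differed in their pattern across the labels. Sp5, Cdx1 and T were at or near 0 and Axin2 was low in both serum labels, Lef1 was high in D1 alone among the 3 labels, and Ctnnb1 kept a read in most cells throughout. A gene was counted as higher or lower when (mean CPM + 1) differed at least 2-fold between labels and at least 10% of cells of either label had a read at equal depth. Of the 9 members that met this limit in D1 over D0, 5 were lower (Axin2, Sp5, T, Cdx1 and Ctnnb1) and 1 was higher (Lef1). Over all 13958 genes that met it, 26.2% were lower and 16.1% higher. In D2 over D0, 6 of 9 members were lower (Axin2, Sp5, T, Cdx1, Tcf7 and Tcf7l1) and 0 higher, beside 30.1% and 12.3% of 12356 genes. Nkd1 did not meet the limit in either comparison. Without the cells that stood apart the counts of lower members were 5 in D1 and 5 in D2, as Tcf7 then lay at -0.93 on the log2 scale. Among the 12119 genes read in 10% or more of D0 cells, which include the same 9 members, 30.1% were lower and 10% higher in D1, and 30.7% lower and 11.4% higher in D2. Between the serum labels, 1 of 6 members had a mean at least 2-fold higher in D2 than in D1 (Ctnnb1, whose median and share of cells were lower) and 3 were lower (Notum, Lef1 and Tcf7l1), beside 16.7% and 23% of 13164 genes. Notum then had a log2 ratio of -1.12, and of -0.59 with reads summed over cells. The median log2 ratio over all genes was -0.22 for D1 and -0.28 for D2, each against D0.

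**Figure D1:**
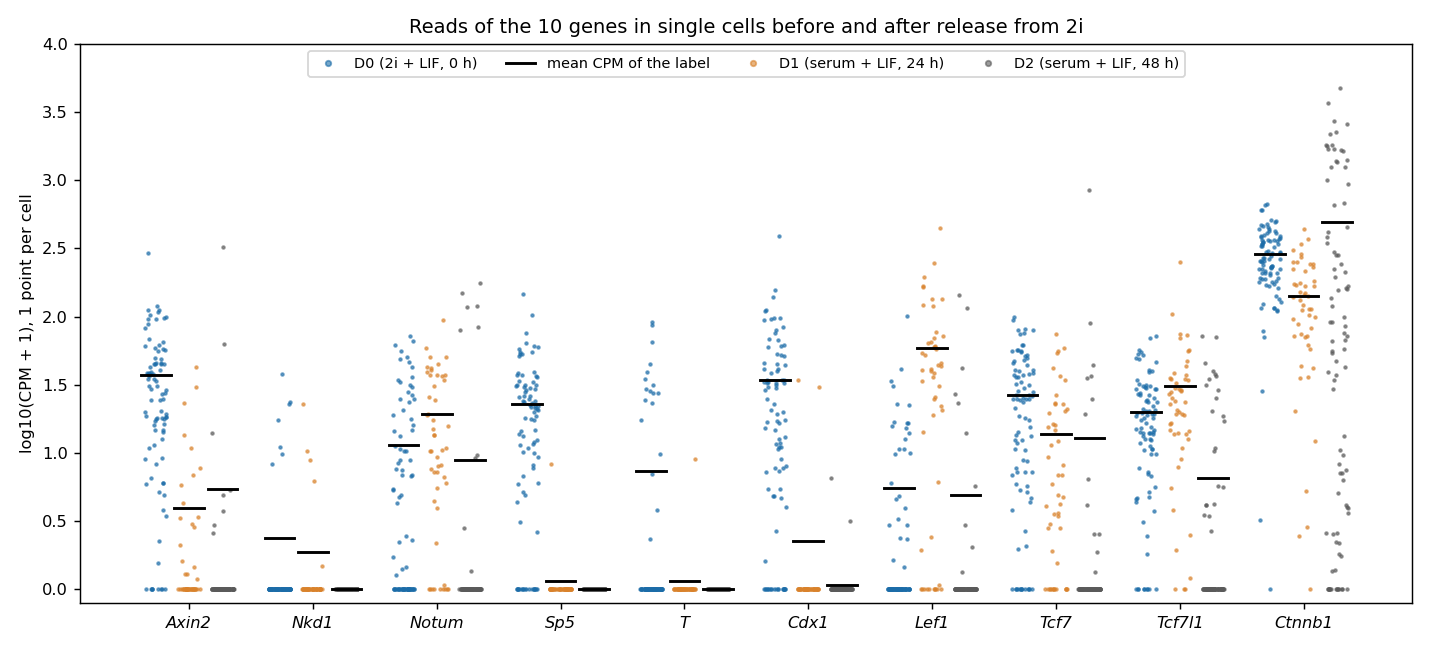
Level of each of the 10 genes in each passing cell, as log10(CPM + 1), for D0 (blue, 90 cells), D1 (orange, 50 cells) and D2 (grey, 93 cells). Black bars are the mean CPM of the label on the same scale. Sp5, T and Cdx1 lie at 0 in almost every D1 and D2 cell, while D2 cells spread over the whole range for Ctnnb1.

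Sp5 (GRCm38 chr2:70474923-70477729, plus strand), a zinc finger transcription factor, was read almost only in 2i. Its level ran from 0 to 146 CPM across D0 cells with a median of 18.4 CPM. In D1 a single cell had reads (7.26 CPM), and in D2 no cell had any. The mean was 21.9 ± 23.9 CPM in D0 and 0.15 ± 1.03 CPM in D1, a log2 ratio of (mean CPM + 1) of -4.32, and 0.308% of the genes tested had a lower one. At equal depth 65 of 90 D0 cells had a Sp5 read (72.2%, 61.8% to 81.1%), against 1 of 50 in D1 (2%, 0.051% to 10.6%). The 0 of 93 cells in D2 allow a share of up to 3.23% when the limit is set at 3 cells, and the upper Clopper-Pearson bound is 3.89%.

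Cdx1 (chr18:61018862-61036199, minus strand), a caudal-type homeobox factor, followed Sp5. In D0 its level ran from 0 to 390.4 CPM with a median of 16.3 CPM and a mean of 33.2 ± 51 CPM. Only 2 cells had reads in each serum label, and the means there were 1.26 ± 6.24 CPM in D1 and 0.083 ± 0.61 CPM in D2. The log2 ratios over D0 were -3.92 and -4.98. A read was present at equal depth in 64 D0 cells (71.1%, 60.6% to 80.2%), 2 D1 cells (4%, 0.49% to 13.7%) and 1 D2 cell (1.08%, 0.027% to 5.85%).

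T (Brachyury, chr17:8434423-8442496, plus strand), the T-box factor of the primitive streak and early mesoderm, was read in a minority of cells even in 2i. It ranged from 0 to 90.1 CPM with a median of 0 and a mean of 6.41 ± 17 CPM in D0. At equal depth 16 of 90 cells had a read (17.8%, 10.5% to 27.3%). With all reads counted, T was found in 18 cells labelled D0, in 1 labelled D1 (7.96 CPM) and in none of the 93 labelled D2. The equal-depth count was 0 of 50 in D1, which allows up to 6% by the limit of 3 cells (Clopper-Pearson bound 7.11%), and 0 of 93 in D2, which allows up to 3.23% (bound 3.89%). The log2 ratio in D1 over D0 was -2.68, and -2.35 without the cells that stood apart. Of the 6 mesoderm markers that were also examined (Mixl1, Eomes, Mesp1, Tbx6, Kdr and Hand1), 2 in D0, 1 in D1 and 0 in D2 had a read in at least 10% of cells, and their summed level averaged 7.43, 3.66 and 0.129 CPM. Mesp1 and Hand1 had no read in D0, and Tbx6 and Kdr none in D2. The part of mesoderm-like cells in the T reads was not tested.

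Axin2 (chr11:108920349-108950783, plus strand) encodes a scaffold of the destruction complex that beta-catenin induces and that limits the pathway in turn. Its level in D0 ran from 0 to 290.9 CPM, with a median of 26.3 CPM and a mean of 36.4 ± 41.2 CPM. In D1 the median was 0, the highest cell 41.5 CPM and the mean 2.96 ± 7.86 CPM. D2 had a median of 0 and a mean of 4.41 ± 33.8 CPM, of which 1 cell at 320.5 CPM held 78.1%, and the mean without that cell was 0.98 CPM. The log2 ratios over D0 were -3.24 in D1 and -2.79 in D2, and the latter was -4.24 without that cell. A read was present in 75 of 90 D0 cells (83.3%, 74% to 90.4%), 11 of 50 D1 cells (22%, 11.5% to 36%) and 6 of 93 D2 cells (6.45%, 2.40% to 13.5%).

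The sequences before the start sites of Sp5, T and Axin2 are shown because these genes had their reads mostly in 2i. They come from RefSeq (GRCm38.p6), which gave 8 of the 10 members, and are the 250 bases before the most upstream start, 5′ to 3′ on the strand of the gene, which is the plus strand for all 3. Capitals mark the letters CTTTGA or CTTTGT, the core that TCF/LEF proteins bind, or their reverse complements TCAAAG and ACAAAG on the other strand.
Sp5, chr2:70474673-70474922: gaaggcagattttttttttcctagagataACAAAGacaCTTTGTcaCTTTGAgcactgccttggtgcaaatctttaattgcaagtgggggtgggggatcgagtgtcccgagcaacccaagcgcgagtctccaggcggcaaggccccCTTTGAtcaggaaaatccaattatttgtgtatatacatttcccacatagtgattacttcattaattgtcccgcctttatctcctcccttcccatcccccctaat
T, chr17:8434173-8434422: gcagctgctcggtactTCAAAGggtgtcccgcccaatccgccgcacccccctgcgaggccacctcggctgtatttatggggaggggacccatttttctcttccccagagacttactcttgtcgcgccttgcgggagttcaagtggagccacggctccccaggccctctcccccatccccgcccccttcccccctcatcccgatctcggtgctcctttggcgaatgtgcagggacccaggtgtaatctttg
Axin2, chr11:108920099-108920348: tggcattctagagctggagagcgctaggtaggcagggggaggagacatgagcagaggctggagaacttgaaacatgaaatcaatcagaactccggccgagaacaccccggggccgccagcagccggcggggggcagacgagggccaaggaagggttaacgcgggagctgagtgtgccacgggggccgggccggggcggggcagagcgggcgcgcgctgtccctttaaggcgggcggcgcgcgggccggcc
In the Sp5 window these letters occurred 4 times, 221, 212, 204 and 104 bases before the start, and no 2 matches overlapped. The T window held 1 match, 234 bases before the start, and the Axin2 window held none. Of 32851 windows of the same length in the same table, 27.6% held at least 1 match and 0.0944% at least 4. Among the 8 members with a window, Tcf7l1 was the only other one whose first start had a match, so that 3 had one. Of the further starts that the table gives for Lef1, Tcf7 and Ctnnb1, the fourth of Lef1 held 3 matches, 180, 146 and 120 bases before it, and the others none. A match in these letters is a description and not a bound site, and a window without one says nothing about binding elsewhere at the gene.

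Nkd1 and Notum are feedback inhibitors that act at different points, Nkd1 on Dishevelled inside the cell and Notum as a secreted enzyme that removes the lipid of Wnt ligands. Nkd1 (chr8:88521354-88594884, plus strand) was close to the limit of detection, with a read in 7 of 90 D0 cells (7.78%), 4 of 50 D1 cells (8%) and 0 of 93 D2 cells, and means of 1.38 ± 5.49, 0.89 ± 3.52 and 0 CPM. Notum (chr11:120653788-120661175, minus strand) did not follow Axin2 in D1. It had a median of 0.99 CPM in D0 (0 to 71 CPM) and 9.73 CPM in D1 (0 to 94.3 CPM), and means of 10.5 ± 16.9 and 18.4 ± 19.9 CPM. The log2 ratio of 0.75 did not reach 2-fold, and it was 1.30 with reads summed over cells. Cells with a Notum read numbered 40 of 90 in D0 (44.4%, 34% to 55.3%) and 36 of 50 in D1 (72%, 57.5% to 83.8%). In D2 8 of 93 cells had one (8.60%, 3.79% to 16.2%), with a mean of 7.93 ± 30.8 CPM and a highest cell of 176.5 CPM. The log2 ratio in D2 over D0 was -0.37, and 0.70 with reads summed over cells, so no direction is given for it.

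**Figure D2:**
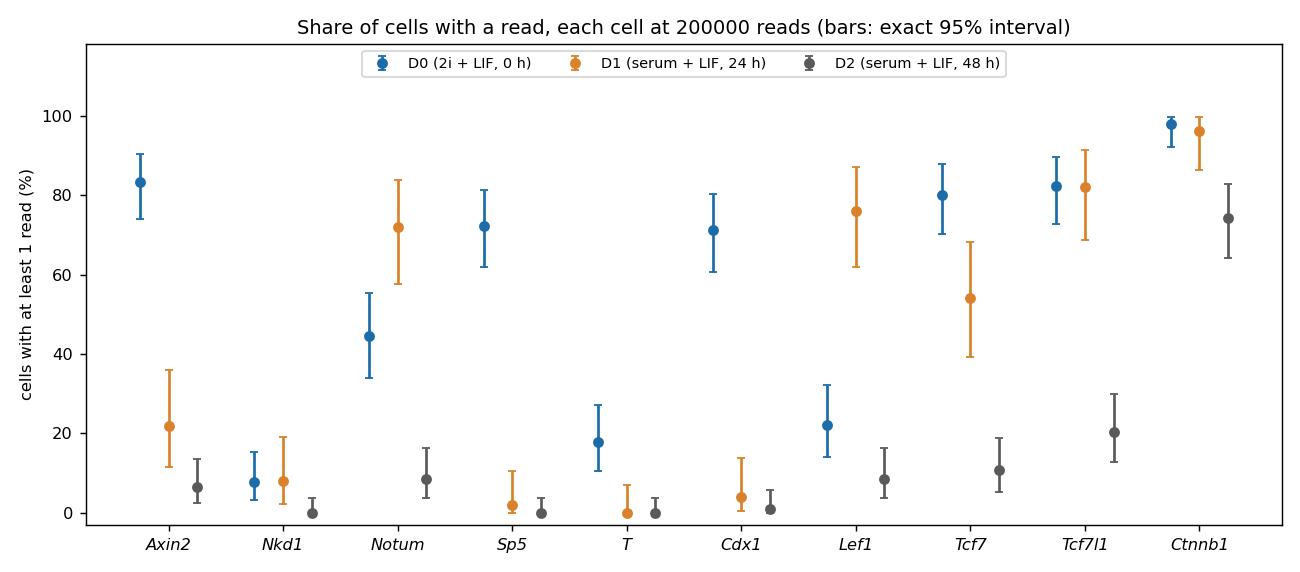
Share of passing cells with at least 1 read of each gene, in percent, with every cell thinned to 200000 reads. Points are D0 (blue), D1 (orange) and D2 (grey), and bars are exact Clopper-Pearson 95% intervals. Sp5, T and Cdx1 lie between 0% and 4% in D1 and D2, whereas Lef1 and Notum have their highest share in D1, at 76% and 72%.

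The TCF/LEF genes, whose proteins carry beta-catenin to DNA, did not move together. Lef1 (chr3:131110471-131224356, plus strand), itself a target, had a median of 0 in D0 (0 to 99.3 CPM) and 39.1 CPM in D1 (0 to 445.9 CPM). Its means for D0, D1 and D2 were 4.55 ± 12.7, 58.3 ± 78.9 and 3.96 ± 19.6 CPM. The log2 ratio in D1 over D0, 3.42, was above that of 99.2% of the genes tested, and without any 1 cell it lay between 3.21 and 3.72. A read was found in 20 of 90 D0 cells (22.2%, 14.1% to 32.2%), 38 of 50 D1 cells (76%, 61.8% to 86.9%) and 8 of 93 D2 cells (8.60%, 3.79% to 16.2%). D2 over D1 gave a log2 ratio of -3.58. Because the D1 plate also carries the Hprt and Y-linked reads, the high Lef1 level belongs to those cells, and time point and origin of the cells cannot be told apart.

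Tcf7 (TCF1, chr11:52252371-52283014, minus strand), mostly an activator, was highest in D0, with a median of 23.1 CPM (0 to 97.9 CPM) and a mean of 25.8 ± 24.5 CPM. In D1 the median was 4.41 CPM (0 to 73.1 CPM) and the mean 12.8 ± 17.5 CPM, a log2 ratio of -0.96. In D2 the median was 0 and the mean 11.9 ± 89 CPM. A single D2 cell at 853 CPM held 76.8% of that sum, and without it the mean was 2.79 CPM and the log2 ratio over D0 moved from -1.05 to -2.82. With reads summed over cells instead, the ratio was 0.026. Cells with a read made up 80% of D0 (70.2% to 87.7%), 54% of D1 (39.3% to 68.2%) and 10.8% of D2 (5.28% to 18.9%).

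Tcf7l1 (TCF3, chr6:72626378-72789254, minus strand), the repressor, was as widely read in D1 as in D0. In D0 74 of 90 cells had a read (82.2%, 72.7% to 89.5%), in D1 41 of 50 (82%, 68.6% to 91.4%) and in D2 19 of 93 (20.4%, 12.8% to 30.1%). The medians were 16.0 CPM (0 to 71.5 CPM), 22.2 CPM (0 to 250.8 CPM) and 0 (0 to 70.9 CPM), and the means 19 ± 16.0, 30.1 ± 38.4 and 5.50 ± 14 CPM. The log2 ratio was 0.64 in D1, and -0.04 with no filter on cells, so its sign depended on the filter. It was -1.62 in D2.

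Ctnnb1, the gene of beta-catenin (GRCm38 chr9:120929216-120960507, plus strand), had the highest share of cells with a read of the 10 in each label. At equal depth 88 of 90 D0 cells (97.8%, 92.2% to 99.7%), 48 of 50 D1 cells (96%, 86.3% to 99.5%) and 69 of 93 D2 cells (74.2%, 64.1% to 82.7%) had a read. D0 cells lay between 0 and 664.7 CPM with a median of 264.1 CPM and a mean of 285 ± 140 CPM. In D1 the median was 125 CPM (0 to 440.3 CPM) and the mean 141 ± 103 CPM, which gave a log2 ratio of -1.005 at the very edge of the 2-fold limit, and of -0.58 with reads summed over cells, which does not reach it. In D2 the mean was higher (490.0 ± 884 CPM, log2 ratio 0.78), while the median was lower (64.8 CPM) and cells ranged from 0 to 4771 CPM. The mean of log-normalized values was lower in D2 by contrast (-0.28 in natural log units), so mean and typical cell went opposite ways and no direction is read for Ctnnb1 in D2.

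D2 cells had fewer detected genes than D0 cells at equal depth, and most shares of cells were lower in D2. Of the 12356 genes tested in D2 over D0, 60.9% had a share of cells no more than 50% of that in D0, and 8 of the 9 members did, Ctnnb1 being the exception. In D1 over D0 10.6% of 13958 genes had such a share, and 4 of 9 members did, namely Axin2, Sp5, T and Cdx1. The D2 shares of the members are to be read against that background. The part of library complexity in them was not tested.

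The targets were also set against Ctnnb1 per kilobase of exon. In CPM per kilobase of exon (RPKM, with exon lengths of GENCODE M21), the mean D0 levels were 54.9 for Ctnnb1, 19 for Cdx1, 10.4 for Sp5, 9.82 for Tcf7, 6.60 for Axin2, 4.84 for Tcf7l1, 4.37 for Notum, 2.77 for T, 0.52 for Lef1 and 0.30 for Nkd1. The SD between cells of the higher gene was larger than the step to the next gene for every neighbouring pair below Ctnnb1, so the order among those 9 is not separated by their spread. Per 100 RPKM of Ctnnb1, the 8 targets summed to 98.0 for D0, 76.1 for D1 and 9.69 for D2. Split with their levels known, so that the contrast is fixed by the choice, Axin2, Sp5, T, Cdx1 and Nkd1 made up 71.2 of this sum in D0 and 5.84 in D1, and Lef1, Notum and Tcf7 26.8 and 70.3. In D2 these parts were 0.90 and 8.79. The D2 value carries the uneven Ctnnb1 level of that label, and it was 6.35 without the cell that held most of the Tcf7 level and 9.03 without the cell that held most of the Axin2 level.

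Counted per cell at equal depth, a median of 4 of the 8 target genes were read per D0 cell, 2 per D1 cell and 0 per D2 cell. In D0 78 of 90 cells (86.7%) had reads of 3 or more targets and 1 cell had none. In D1 24 of 50 cells (48%) had 3 or more, and 1 had none. In D2 1 of 93 cells reached 3, and 65 cells (69.9%) had none. At least 1 of Axin2, Sp5, T and Cdx1, a set chosen with their levels known, was read in 87 D0 cells (96.7%, 90.6% to 99.3%), 13 D1 cells (26%, 14.6% to 40.3%) and 7 D2 cells (7.53%, 3.08% to 14.9%). D1 cells had about as many detected genes as D0 cells at this depth and D2 cells fewer, and the part of library complexity in these counts was not tested.

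**Figure D3:**
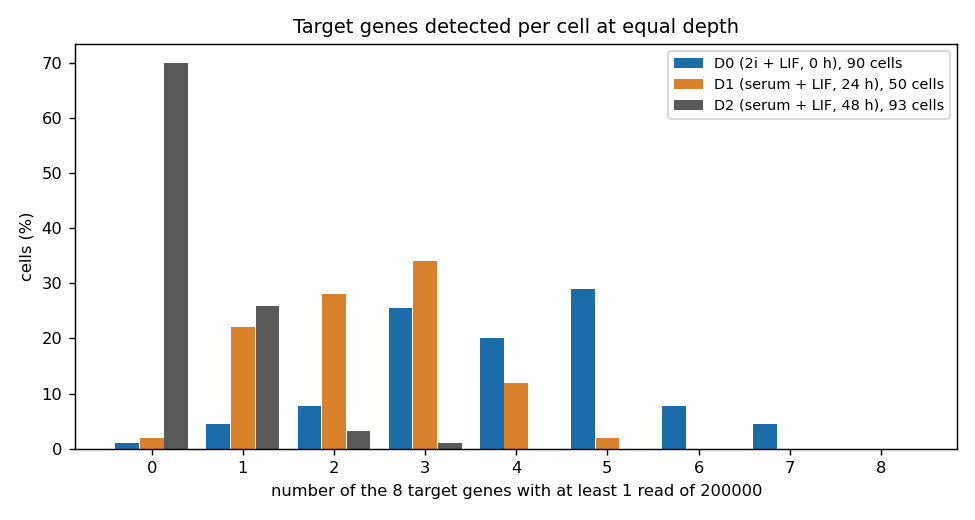
Percent of passing cells (y axis) by the number of the 8 target genes with at least 1 read among 200000 (x axis), for D0 (blue, 90 cells), D1 (orange, 50 cells) and D2 (grey, 93 cells). D0 cells have a median of 4 targets and D1 cells of 2, and 69.9% of D2 cells have none.

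The rest of the pathway was described from 145 named genes in 9 overlapping lists, of which 144 were in the table. Of the 97 that met the limit in D1 over D0, 17 were at least 2-fold higher and 41 lower (17.5% and 42.3%, beside 16.1% and 26.2% of all genes). Of 82 in D2 over D0, 9 were higher and 45 lower (11% and 54.9%, beside 12.3% and 30.1%). The median log2 ratio was -0.81 in D1 and -1.32 in D2. A gene can meet the limit only through the label in which it is high, so shares of higher genes are in part set by the limit. This holds for the lists and for all genes. Fzd3, Cdh2 and Shisa2, all higher in D1, met it there only through D1 cells. Genes named with values are the 4 of each list with the largest ratio in either comparison, unless stated otherwise.

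Few Wnt ligands met the limit. Of 18, 14 had a read in some passing cell, 3 met the limit in D1 and 1 in D2, and Wnt1, Wnt2, Wnt7a and Wnt9b had no read in any passing cell. Wnt6 averaged 0.088 CPM across D0 cells, 12.3 ± 29 CPM across D1 cells and 4.87 ± 23.9 CPM across D2 cells, with a read in 30% of D1 cells, while Wnt8a was read in 16% of D1 cells and in none of D0. Wnt5b averaged 3.32, 0.73 and 0 CPM in D0, D1 and D2. Of the genes for ligand release, Porcn, which attaches the lipid, was at 3.05 ± 10.0, 7.88 ± 22.1 and 39.8 ± 124 CPM in D0, D1 and D2, and Wls, which carries ligands to the surface, at 16.6 ± 49.2, 8.47 ± 28.7 and 0.17 ± 1.68 CPM.

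Among receptors, R-spondins and Dishevelled genes 14 of 25 met the limit in D1, with 2 higher and 7 lower (14.3% and 50%, beside 16.1% and 26.2% of all genes), and 12 in D2, with 1 higher and 9 lower (8.33% and 75%, beside 12.3% and 30.1%). Fzd10, a Frizzled receptor, averaged 20.8 ± 25.4, 3.22 ± 12.4 and 0.29 ± 1.86 CPM in the order D0, D1, D2, which holds for each such triple below. The co-receptor gene Lrp5 was at 31.2 ± 34.2, 1.99 ± 5.32 and 62.5 ± 178 CPM, with a read in 70%, 16% and 19.4% of cells. Ror2, a receptor tyrosine kinase that binds Wnt5a, and Dvl3, a Dishevelled gene, were lower in both labels, with log2 ratios of -1.27 and -3.96 for Ror2 and of -1.61 and -3.50 for Dvl3. Of 19 genes for secreted or membrane inhibitors, 12 met the limit in D1 and 8 in D2. In D1 1 was higher and 6 lower (50%, beside 26.2% of all genes), and in D2 1 was higher and 5 lower (62.5%, beside 30.1%). Sfrp1, which binds Wnt ligands outside the cell, stood out with 191 ± 143, 17.2 ± 18.7 and 3.07 ± 9.71 CPM. Znrf3, a membrane ubiquitin ligase that removes Frizzled and is also a target, was similar in D0 and D1 (44.1 ± 54.4 and 45 ± 51.7 CPM) and low in D2 (3.10 ± 13.8 CPM). The target and inhibitor Apcdd1 was at 7.89, 0.56 and 0 CPM, and Sfrp4 at 6.73, 0.25 and 27.8 CPM.

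Of 15 genes of the destruction complex, 14 met the limit, and in D1 8 were lower (57.1%, beside 26.2% of all genes) and 0 higher. In D2 5 were lower (35.7%, near the 30.1% of all genes) and 1 was higher. Gsk3b, which encodes a kinase that CHIR99021 inhibits, averaged 299 ± 155, 56.1 ± 47.9 and 29.5 ± 123 CPM, and reads of it were found in 97.8%, 90% and 14% of cells. Apc was at 202 ± 136, 46.9 ± 53.6 and 21.3 ± 134 CPM. The log2 ratios of Axin1 were -0.74 in D1 and -2.47 in D2, and those of Tnks, which marks Axin for degradation, -1.81 and -1.73. Of 18 nuclear partners 1 was higher and 6 lower in D1 (33.3% lower, beside 26.2% of all genes), and 0 higher and 10 lower in D2 (55.6%, beside 30.1%). Tcf7l2, the remaining member of the TCF family, averaged 14.4 ± 19.3, 13.1 ± 21.6 and 0.69 ± 3.07 CPM. Tle3, a co-repressor that TCF proteins recruit, was at 31 ± 31, 6.26 ± 8.03 and 2.44 ± 10.8 CPM. Bcl9l, a beta-catenin co-activator, had log2 ratios of -1.45 and -2.78, and the Mediator subunit gene Med12 of -2.71 and -0.078.

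At the membrane, where beta-catenin links cadherins to actin, Cdh1 (E-cadherin) averaged 431 ± 197, 89.3 ± 64.4 and 141 ± 320.1 CPM. Cdh3 (P-cadherin) was at 2.86 ± 14.4, 7.73 ± 17.6 and 19.1 ± 67.1 CPM, and Cdh2 (N-cadherin) at 1.95 ± 8.11, 9.03 ± 20.4 and 1.12 ± 9.35 CPM. Of 6 genes of this list 2 were higher and 1 lower in D1 (33.3% and 16.7%, beside 16.1% and 26.2% of all genes), and of 5 in D2 1 was higher and 3 lower (20% and 60%, beside 12.3% and 30.1%), among them Ctnnd1 (p120 catenin) with a log2 ratio of -1.81.

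Other genes known as beta-catenin targets lay on both sides. Of 21 that met the limit in D1, 7 were higher and 5 lower (33.3% and 23.8%, beside 16.1% and 26.2% of all genes), and of 15 in D2, 3 were higher and 7 lower (20% and 46.7%, beside 12.3% and 30.1%). Of the higher genes in D1, Ascl2, Msx1, Cdx4 and Fosl1 met the limit only through D1 cells, so the excess over all genes is not read as a result. Myc averaged 2.72 ± 7.67, 70.8 ± 75.7 and 73.6 ± 216 CPM, with a read in 13.3%, 84% and 32.3% of cells. Ascl2 was at 0.27 ± 1.61, 8.08 ± 12.9 and 21.5 ± 66.7 CPM, and Id2, which also answers to BMP in serum, at 10.6 ± 55.5, 126 ± 216 and 159 ± 287 CPM. Dkk1, Rnf43, Mixl1 and Fst, named after their values were seen, met the limit and were at least 2-fold lower in both serum labels. Their log2 ratios over D0 were -2.41, -2.15, -1.59 and -1.13 in D1 and -2.25, -2.22, -1.91 and -1.87 in D2. The share of all genes lower in both labels was not computed, so this overlap is not read as a result. Many genes of this list are known to have other inputs, and the changes of medium cannot be told apart in them.

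Of 11 naive pluripotency genes to which Tcf7l1 binds in embryonic stem cells, 9 were lower (81.8%, beside 26.2% of all genes) and 1 higher in D1, and 7 lower (63.6%, beside 30.1%) and 1 higher in D2. The median log2 ratio was -2.13 and -1.78. Tfcp2l1 averaged 1598 ± 533, 51.9 ± 73.2 and 220.2 ± 680.3 CPM, Tbx3 at 141 ± 80.2, 13.5 ± 34.3 and 13.7 ± 41.5 CPM, Prdm14 at 42.7 ± 53.9, 2.58 ± 9.57 and 8.40 ± 39.8 CPM, and Klf4 at 85.9 ± 76.3, 20.5 ± 26.1 and 4.84 ± 18.8 CPM. Several of these genes are also known to depend on LIF, which was kept at 20 ng/ml in all labels, and on MEK inhibition. The MEK inhibitor was removed together with CHIR99021, and its part cannot be told apart from that of Tcf7l1 here.

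**Figure D4:**
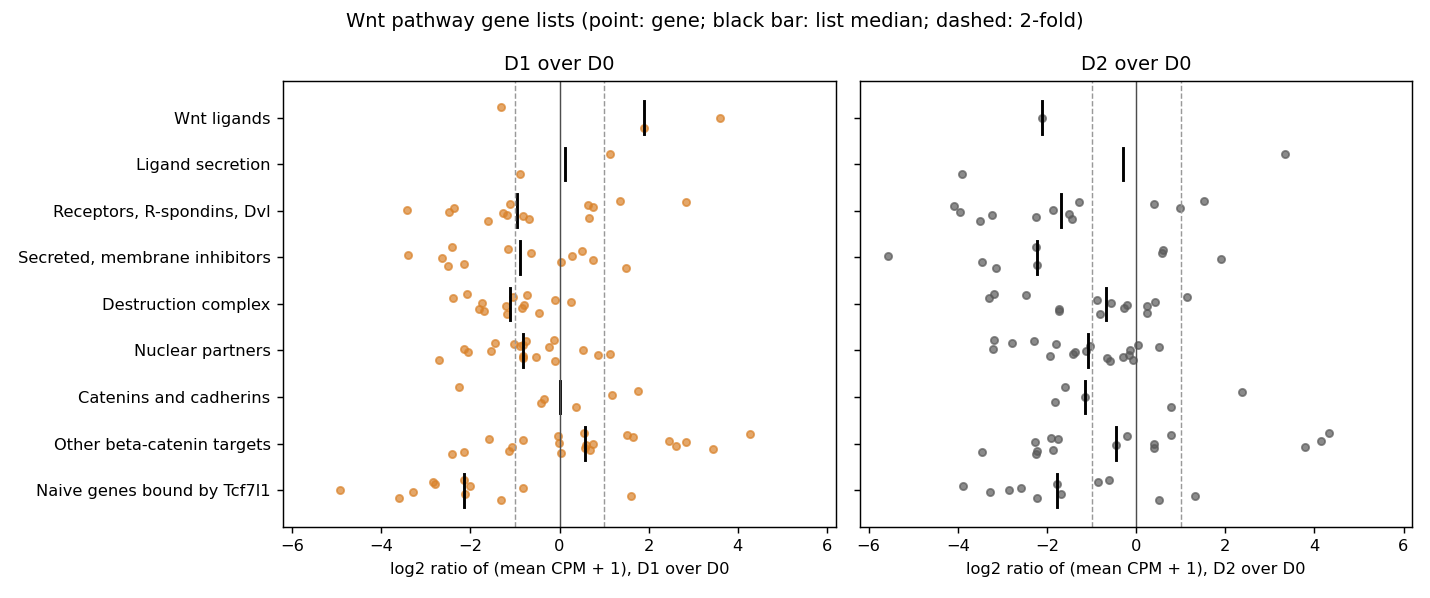
Log2 ratio of (mean CPM + 1) over D0 for each gene of the 9 pathway lists that met the limit of 10% of cells, in D1 (left, orange) and D2 (right, grey). Each point is a gene, black bars are list medians and dashed lines mark 2-fold. The naive genes bound by Tcf7l1 have medians of -2.13 and -1.78, and the other beta-catenin targets spread to both sides.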

How the data were processed

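Single-cell RNA of scNMT-seq libraries (mouse E14 cells, 96 wells per label) was used. The submitters' processing notes name HISAT2 and GRCm38, and the authors deposited read counts per gene for 288 wells, as whole numbers without normalization. The annotation, strand setting and counting tool are not given in the sources used here. Exons of Axin2, Notum, Lef1, Tcf7l1 and Ctnnb1 overlap genes on the opposite strand, whose reads cannot be told apart. From the counts, CPM, shares of cells with at least 1 read at 200000 reads (95% intervals) and RPKM (GENCODE M21 exon lengths) were computed (Python 3.11.15, scipy 1.17.1, numpy 2.4.6). Where no cell had a read, the limit was set at 3 cells. Reads carry no molecular identifiers, so intervals and limits cover counting error only. Ratios use a pseudocount of 1 CPM. edgeR 4.0.16 gave TMM factors as an alternative. The ratio step was tested on simulated counts. All 10 members are named, and of each list the up to 4 genes of largest ratio. Genes without a read, 4 further targets and some genes that met the limit only through D1 were named after their values were seen. For members with a read in at least 50% of D0 cells, the 3 genes of highest rank correlation across D0 cells are named. Members and lists were chosen with earlier results of these data known.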

Additional observations from a re-analysis of the deposited data

How the results depend on the processing

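No paired analysis was possible because each label was taken as 1 culture and none numbers its replicates. T, Nkd1 and Sp5 had no read in D2, where absence of reads bounds only the share of cells with a read.

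Log2 ratios of Axin2, Sp5, T and Cdx1 over D0 were negative and those of Lef1 in D1 over D0 positive in every alternative run. The ratio of Tcf7 in D2 over D0 (-1.05) reversed to 0.026 with summed reads, 0.29 with TMM factors and 0.24 with median-of-ratios factors, where 1 cell held 90.6% of the D2 reads.

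With reads summed over cells, alone or with either kind of factor, 2 members were higher in D1 over D0 (1 as reported) and 1 in D2 over D0 (0 as reported), while lower members numbered 4, 5 and 2 in D1 over D0, D2 over D0 and D2 over D1 (5, 6 and 3 as reported), as Ctnnb1, Tcf7 and Notum no longer reached the limit. Notum in D2 over D1 (-1.12) also missed it with no filter on cells (-0.77), a pseudocount of 10 CPM (-0.66) and in plate columns 1 to 6 (-0.72). With mean log-normalized values, which are differences on a natural log scale, 0 were higher and 0 lower in all 3 comparisons. On this scale a gene at a low level cannot reach the limit. Sp5, without a read in D2, gave only -0.18 in D2 over D0, so nothing is concluded from these counts. A pseudocount of 10 CPM left 3 lower in D1 (5 as reported) and 3 in D2 (6 as reported). In plate columns 7 to 12, 1 was higher in D2 over D0 and 3 in D2 over D1 (1 as reported), and with no filter on cells 2 in D2 over D1. With each cell left out in turn, lower members numbered 4 to 6 in D1 over D0, as Ctnnb1 and Tcf7 lie close to the limit, 6 in D2 over D0 and 3 to 4 in D2 over D1 (3 as reported), and higher members 1, 0 and 1. Over all pathway lists, a pseudocount of 10 CPM left 7 higher and 26 lower in D1, beside 17 and 41. Of 240 shares of cells under alternatives, 225 stayed within their interval.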

Other observations

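Across the 90 D0 cells at equal depth, rank correlations between the members were low. Over the 28 pairs of members that each had a read in at least 20% of cells, Spearman's rho ranged from -0.20 to 0.37 with a median of 0.11. The highest pair was Axin2 and Sp5, with reads of both in 58 cells, followed by Sp5 and Lef1 (0.29) and by Axin2 and Lef1 (0.27). In the 50 D1 cells the 15 pairs ranged from -0.20 to 0.35, the highest being Notum and Ctnnb1. All cells of a label share 1 plate and the values are sparse read counts, so these are descriptions without a test.

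Among the 7509 genes read in 50% or more of D0 cells, those ranked closest to Tcf7l1 were Slc28a1 (rho 0.53), Yap1 (0.51) and Fam3c (0.45). Those closest to Sp5 were Pla1a (0.51), Cramp1l (0.45) and Ccdc88c (0.43), and Pla1a also came first for Tcf7 (0.46), ahead of Agrn (0.45) and Zfp532 (0.41). For Axin2 they were Bace1 (0.43), Polr3c (0.39) and Cdpf1 (0.37), for Cdx1 Lmna (0.43), Ostf1 (0.41) and Ptges2 (0.41), and for Ctnnb1 Ak1 (0.47), Smarca4 (0.44) and Pcnt (0.44). These genes were picked as the highest of that search, and no test stands behind them.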
